A study of Mus musculus with 7 samples.

Results

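The retina lives under constant oxidative load, and its cells keep a set of genes that are switched on by reactive oxygen, by heavy metals or by free iron. Here 10 of them, fixed by name, were followed in retinas from mice with the SCA7 knock-in, out of the 52550 genes in the count table: *Hmox1*, *Nqo1*, *Gclc*, *Gclm*, *Srxn1* and *Txnrd1*, the metallothioneins *Mt1*, *Mt2* and *Mt3*, and *Cp*. All 10 passed the filter on low counts, as did 20128 genes in all. The rule is a list of names, with no threshold on any measured value.

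The first 6 are targets of NRF2 (*Nfe2l2*), a transcription factor that KEAP1 holds in the cytoplasm and marks for degradation until oxidants modify KEAP1. NRF2 then binds antioxidant response elements together with a small MAF protein, at sites that BACH1 otherwise occupies. Metallothioneins are short cysteine-rich proteins that bind zinc and copper. *Mt1* and *Mt2* are induced through metal response elements by the zinc sensor MTF1 and are also raised by glucocorticoids and inflammatory cytokines, while *Mt3* is the brain form. Ceruloplasmin, the product of *Cp*, is a copper ferroxidase that oxidises iron as ferroportin (*Slc40a1*) exports it, and in the retina it is made largely by Müller glia.

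The samples were whole retinas of C57BL/6J mice aged 12.5 weeks, 4 wild type (WT) and 3 homozygous for the SCA7 knock-in allele, a long CAG repeat in the first exon of *Atxn7* that encodes an expanded polyglutamine tract under the gene's own promoter. The allele is in every cell, so these are germline mutants and not a treatment of one cell type. Each library was made from both retinas of a single mouse. Ribosomal RNA was depleted and total RNA was sequenced as single reads of 50 bases. Total counts per library lay between 56497675 and 96635832. The labels do not give the sex of the mice, but every library had the expression pattern of a male. The Y-linked gene *Ddx3y* lay between 104.3 and 115.0 CPM (counts relative to a library size scaled by TMM factors, in units of 1e6 counts) in all 7 libraries, and *Xist* between 0.0612 and 0.300 CPM. In SCA7 all 8 rod markers fell, as did all 8 cone markers. The 100 genes with the most counts took from 32.3% to 36.8% of the counts in WT and from 26.0% to 26.5% in SCA7. In whole retina, fewer cells of a type and less RNA per cell cannot be told apart.

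The promoters of the 3 metallothioneins are shown first, because *Mt1* and *Mt2* changed and *Mt3*, in the same cluster of chromosome 8, was not called. These are the 250 bases before the RefSeq start site (build GRCm38.p6, plus strand, 5′ to 3′). Capitals mark the core of a metal response element (TGCGCNC or TGCACNC) or of an antioxidant response element (TGACNNNGC), on either strand.
Mt1, chr8:94178839-94179088: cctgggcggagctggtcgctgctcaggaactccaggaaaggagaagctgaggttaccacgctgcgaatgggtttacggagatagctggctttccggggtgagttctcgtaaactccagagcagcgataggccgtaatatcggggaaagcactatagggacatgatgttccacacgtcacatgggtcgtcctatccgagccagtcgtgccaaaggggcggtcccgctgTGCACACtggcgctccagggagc
Mt2, chr8:94172368-94172617: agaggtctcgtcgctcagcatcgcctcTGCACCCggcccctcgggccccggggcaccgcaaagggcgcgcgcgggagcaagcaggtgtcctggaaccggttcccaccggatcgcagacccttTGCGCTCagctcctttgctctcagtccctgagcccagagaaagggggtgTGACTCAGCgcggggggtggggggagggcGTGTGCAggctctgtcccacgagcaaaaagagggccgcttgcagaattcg
Mt3, chr8:94152357-94152606: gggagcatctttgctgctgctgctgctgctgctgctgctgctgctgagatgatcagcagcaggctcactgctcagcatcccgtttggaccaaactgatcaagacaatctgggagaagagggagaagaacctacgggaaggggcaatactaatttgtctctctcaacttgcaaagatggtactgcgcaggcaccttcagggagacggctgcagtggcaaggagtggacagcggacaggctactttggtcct
*Mt1* had 1 metal response core, starting 23 bases before the start site. *Mt2* had 3 of them, starting 223, 128 and 50 bases before it, the last on the minus strand, and 1 antioxidant response core, TGACTCAGC, at 79 bases. *Mt3* had no match to either. Matches of this kind are common. A metal response core stood in 21.4% of the 32851 RefSeq promoters of the same length and 3 or more of them in 1.26%, and an antioxidant response core stood in 10.2%. The windows depend on the start site chosen. GENCODE also places transcript starts 122 and 152 bases after the RefSeq start of *Mt1*, 46 and 242 bases after that of *Mt2* and 139 bases after that of *Mt3*. The bases just before those starts were not searched, so the counts of matches do not rank the genes.

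Of the other members, *Gclm* had 1 antioxidant response core, TGACGGTGC on the minus strand 134 bases before its start, and *Txnrd1* had 1 in front of the second of its 3 RefSeq starts, TGACAAAGC at 92 bases. *Srxn1*, *Nqo1* and *Cp* had none in these 250 bases. Metal response cores also stood in front of members that were not called, 2 in *Gclm* and 1 in *Srxn1*, and none in front of *Nqo1*, *Txnrd1* or *Cp*. Promoters were at hand for 8 of the 10 members, *Hmox1* and *Gclc* being named only. A match is a stretch of letters and not a bound site, and enhancers farther out were not searched.

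In SCA7 retina 3 of the 10 genes were upregulated, by the study's thresholds of an adjusted p under 0.05 and a fold change (FC, SCA7/WT) above 1.3: *Mt2*, *Hmox1* and *Mt1*. Of all genes tested, 7.47% were upregulated. *Cp* and *Txnrd1* also rose at an adjusted p under 0.05 but by less than 1.3-fold, which makes 5 members higher by the adjusted p alone, against 14.2% of all genes. None of the 10 was downregulated (FC under 0.7) by the quasi-likelihood test of edgeR, against 7.91% of all genes. No member was lower at an unadjusted p under 0.05 either (20.2% of all genes were), and DESeq2 and limma-voom called none. The median log2 fold change of the 10 was 0.19, against -0.02 over all genes tested. In 6 of the 10 every SCA7 library lay above every WT library, as it did in 19.3% of all genes. These counts carry no test of their own, because the members were chosen with earlier results of these data known. In the paired fit, with the replicate number as a block, 1 of the 10 was upregulated, namely *Hmox1*, and without WT replicate 3 the count was also 1.

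**Figure D1:**
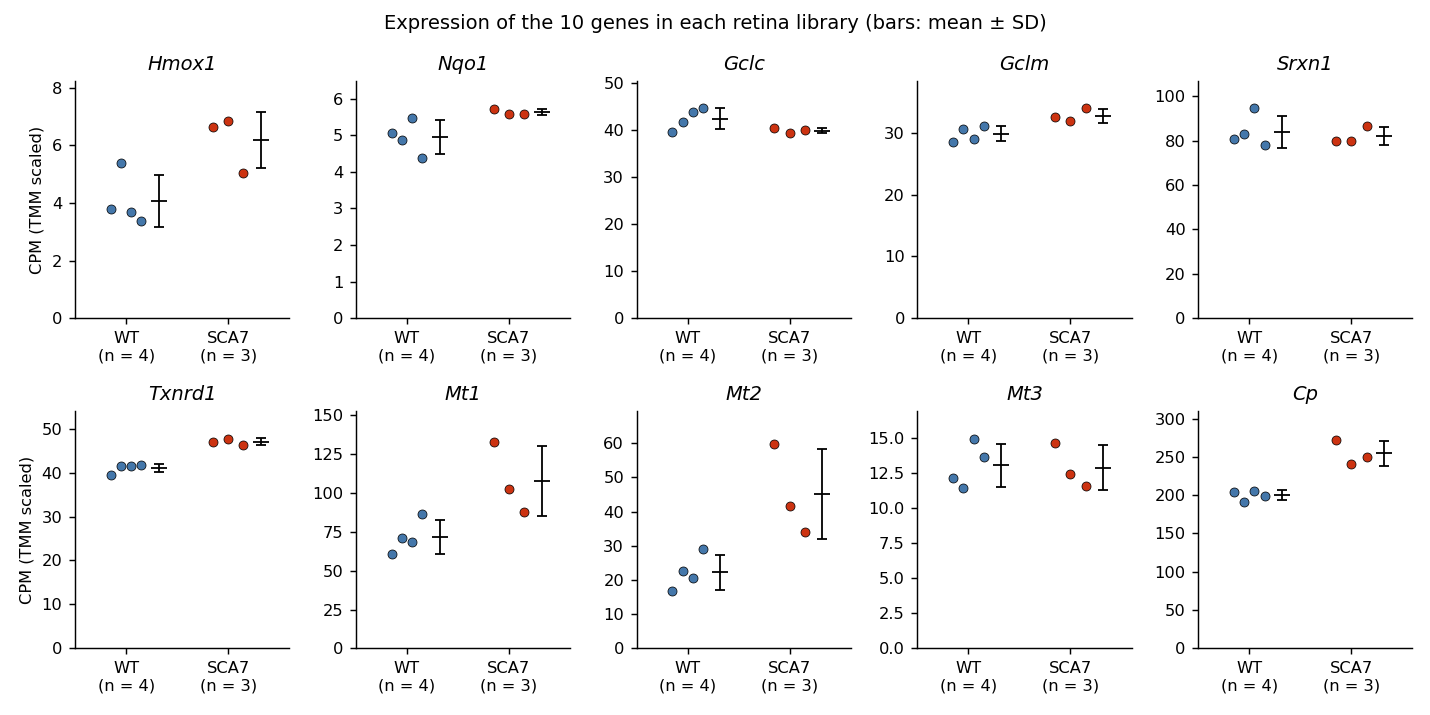
Expression of the 10 genes in CPM (TMM scaled, linear axis from 0) in each retina library of WT (blue, n = 4) and SCA7 (red, n = 3), with the mean and SD beside the points. Nqo1, Gclm, Txnrd1, Mt1, Mt2 and Cp show groups that do not overlap, Hmox1 overlaps in 1 WT library, and Srxn1, Gclc and Mt3 overlap.

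The metallothioneins bind zinc and copper and scavenge radicals. *Mt2* (ENSMUSG00000031762, chromosome 8, 94172664 to 94173568 in mm10) gave 16.7, 22.7, 20.7 and 29.0 CPM in the 4 WT libraries and 59.7, 41.7 and 34.1 CPM in the 3 SCA7 libraries. All 3 SCA7 libraries were above all 4 WT libraries, and replicate 1 of SCA7 was the highest. *Mt2* rose 2.02-fold (log2 fold change 1.02, SE 0.25, edgeR quasi-likelihood test, adjusted p = 0.027), the largest change of the 10. The 95% interval ran from 1.33-fold to 3.09-fold.

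*Mt1* (ENSMUSG00000031765, chromosome 8, 94179082 to 94180327) is the neighbouring gene. It had 60.6, 71.3, 68.5 and 86.2 CPM in WT and 132.5, 102.2 and 88.0 CPM in SCA7. The groups did not overlap, though the lowest SCA7 library was close to the highest WT library. *Mt1* rose 1.50-fold (log2 fold change 0.59, SE 0.15, edgeR adjusted p = 0.024).

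The calls of *Mt1* and *Mt2* depended on the fit. They were kept in 6 and 5 of the 7 fits that left out a library. Both missed the threshold when the replicate number was a block (edgeR adjusted p = 0.13 and 0.15, with log2 fold changes of 0.67 and 1.14), without WT replicate 3 (adjusted p = 0.12 and 0.089), and without a filter on low counts (adjusted p = 0.097 and 0.065). *Mt2* also missed it without SCA7 replicate 2 (adjusted p = 0.065). The direction was the same in all 14 refits of each gene, with a log2 fold change from 0.41 to 0.71 for *Mt1* and from 0.77 to 1.19 for *Mt2*.

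*Mt3* (ENSMUSG00000031760, chromosome 8, 94152607 to 94154146), which is known from neurons, gave 12.2, 11.4, 14.9 and 13.6 CPM in WT and 14.6, 12.5 and 11.6 CPM in SCA7. The groups overlapped throughout. Its log2 fold change was -0.02 (SE 0.11, edgeR adjusted p = 0.91), with a 95% interval from -0.25 to 0.21. The sign of so small a value was not fixed and was positive in 6 of 14 refits. *Mt4*, the form of squamous epithelia, had 0 counts in every library.

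The metallothioneins were also compared with each other within each library, a measure that does not depend on how libraries are scaled. The log2 ratio of *Mt2* to *Mt1* counts was -1.86, -1.65, -1.72 and -1.57 in WT and -1.15, -1.29 and -1.37 in SCA7. It was higher in 3 of 3 SCA7 libraries than in any WT library, by 0.43 on average. The log2 ratio of *Mt3* to *Mt1* was lower in SCA7 (-3.05 ± 0.13, SD, n = 3) than in WT (-2.45 ± 0.23, SD, n = 4), again without overlap. Each ratio gave p = 0.0286 in a two-sided exact permutation test, the smallest that the 35 splits of 7 libraries allow, and 0.0286 after adjustment over the 3 ratios compared. These splits exchange all libraries freely. With the 3 pairs of equal replicate number kept, the exact permutation p of each ratio was 0.25, the smallest that 8 sign patterns allow. How often the ratios of other gene pairs lie apart was not computed. Of 20128 single genes, 3882 had every SCA7 library above every WT library and 3674 had every one below. *Mt1*, *Mt2* and *Gclm* were themselves among the 3882, so these ratios are not separate evidence.

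**Figure D2:**
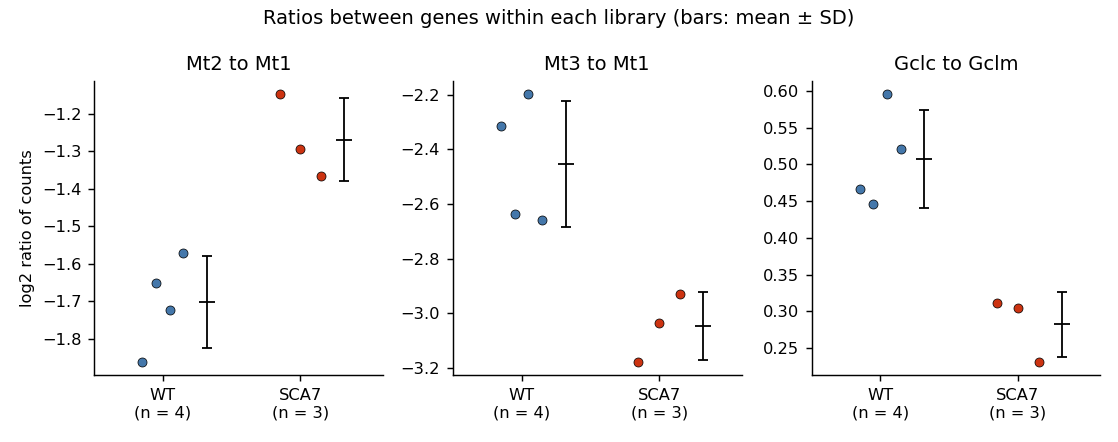
Log2 ratio of the counts of Mt2 to Mt1, of Mt3 to Mt1 and of Gclc to Gclm within each library of WT (blue, n = 4) and SCA7 (red, n = 3), with mean and SD. In each panel the 3 SCA7 libraries lie on one side of the 4 WT libraries, above them for Mt2 to Mt1 and below them for the other ratios.

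Around the cluster, within 100000 bases of the metallothionein genes, 2 further protein-coding genes passed the edgeR test, in opposite directions. *Bbs2*, a gene of the Bardet-Biedl ciliary complex, had a log2 fold change of -0.46 (SE 0.08, adjusted p = 0.0016). *Nup93*, a nuclear pore protein, had one of 0.22 (SE 0.07, adjusted p = 0.029). *Ogfod1*, next to *Bbs2*, did not pass (0.07, SE 0.06, adjusted p = 0.42). *Gm45774*, an antisense transcript that shares 432 of the 588 exon bases of *Mt2*, had 25 to 40 counts per library against at least 975 for *Mt2*.

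*Hmox1* (ENSMUSG00000005413, chromosome 8, 75093621 to 75100589) encodes the inducible heme oxygenase, which splits heme into biliverdin, carbon monoxide and free iron. It had 3.81, 5.40, 3.70 and 3.37 CPM in WT and 6.65, 6.83 and 5.06 CPM in SCA7. WT replicate 2 was above SCA7 replicate 3, and the remaining libraries were apart. *Hmox1* rose 1.51-fold (log2 fold change 0.60, SE 0.16, edgeR adjusted p = 0.018). It missed the threshold without WT replicate 1, SCA7 replicate 1 or SCA7 replicate 2 (edgeR adjusted p = 0.057, 0.076 and 0.082). *Hmox2*, the constitutive heme oxygenase, was not called (48.9 ± 4.1 CPM in 4 WT and 51.6 ± 0.1 CPM in 3 SCA7 libraries, SD, edgeR adjusted p = 0.44).

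*Txnrd1* (ENSMUSG00000020250, chromosome 10, 82833951 to 82897712), the cytosolic thioredoxin reductase, gave 39.5, 41.5, 41.5 and 41.7 CPM in WT and 47.1, 47.7 and 46.3 CPM in SCA7. The spread within each group was small and the groups were apart. Its increase of 1.15-fold (log2 fold change 0.20, SE 0.05, edgeR adjusted p = 0.017) stayed under the FC threshold. Without SCA7 replicates 1, 2 and 3 in turn the adjusted p was 0.070, 0.075 and 0.051.

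The other NRF2 targets did not pass the test. *Nqo1* (ENSMUSG00000003849, chromosome 8, 107388225 to 107403206), a quinone reductase that is widely used as an index of NRF2 activity, gave 5.07, 4.88, 5.48 and 4.38 CPM in WT and 5.72, 5.59 and 5.59 CPM in SCA7. The SCA7 libraries were all slightly above the WT libraries. The log2 fold change was 0.19 (SE 0.10, edgeR adjusted p = 0.18), and its 95% interval, -0.03 to 0.40, includes FC 1.3 at its upper end. *Srxn1* (ENSMUSG00000032802, chromosome 2, 152105516 to 152111376), which repairs oxidised peroxiredoxins, ranged from 78.3 to 94.6 CPM in WT and from 79.8 to 86.6 CPM in SCA7. The groups overlapped (log2 fold change -0.03, SE 0.07, edgeR adjusted p = 0.76), and the 95% interval from -0.19 to 0.12 leaves out FC 1.3 and FC 0.7.

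*Gclc* and *Gclm* encode the catalytic and the modifier subunit of glutamate-cysteine ligase, the first enzyme of glutathione synthesis. *Gclc* (ENSMUSG00000032350, chromosome 9, 77754535 to 77794485) had 39.5, 41.7, 43.9 and 44.6 CPM in WT and 40.4, 39.3 and 39.9 CPM in SCA7 (log2 fold change -0.09, SE 0.06, edgeR adjusted p = 0.29). *Gclm* (ENSMUSG00000028124, chromosome 3, 122245557 to 122270732) had 28.6, 30.6, 29.0 and 31.1 CPM in WT and 32.5, 31.9 and 34.0 CPM in SCA7 (log2 fold change 0.14, SE 0.06, edgeR adjusted p = 0.11). *Gclc* overlapped between the groups, and *Gclm* did not. The log2 ratio of *Gclc* to *Gclm* was 0.51 ± 0.07 in WT (SD, n = 4) and 0.28 ± 0.04 in SCA7 (SD, n = 3), lower in 3 of 3 SCA7 libraries than in any WT library. Its exact permutation p was 0.0286 over all splits and 0.25 over the pairs, each the smallest possible, as for the other ratios.

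*Cp* (ENSMUSG00000003617, chromosome 3, 19957054 to 20009145) gave 204.3, 191.1, 205.6 and 198.5 CPM in WT and 272.3, 241.1 and 250.3 CPM in SCA7. Every SCA7 library was well above every WT library. The increase of 1.27-fold (log2 fold change 0.35, SE 0.06, edgeR adjusted p = 0.0017) was just under the FC threshold, and it passed the adjusted p in all 14 refits. Without SCA7 replicate 2 its log2 fold change of 0.39 (edgeR adjusted p = 0.0048) also passed the FC threshold. *Cp* shares 108 of its 9566 exon bases with *Hps3* on the opposite strand, which fell (log2 fold change -0.83, edgeR adjusted p = 9.4e-06).

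**Figure D3:**
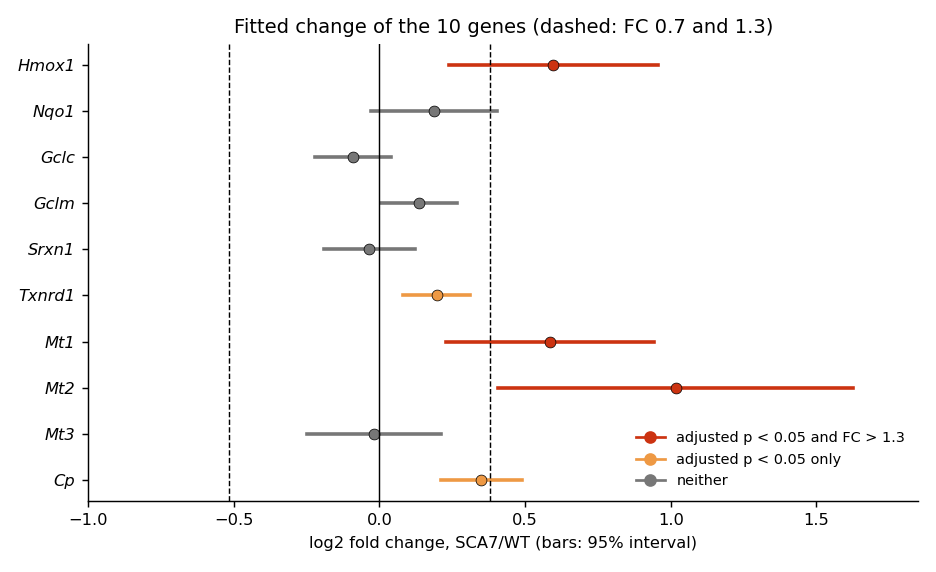
Log2 fold change (SCA7/WT) of the 10 genes from the edgeR fit, with 95% intervals and dashed lines at FC 0.7 and 1.3. Red genes passed both thresholds (Hmox1, Mt1 and Mt2), orange genes the adjusted p only (Txnrd1 and Cp), and grey genes neither.

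Levels between genes were compared per length, as RPK (counts scaled by size factors per kb of median transcript length). In WT retina the order of mean RPK was *Srxn1* (13020), *Cp* (11270), *Mt1* (7812), *Gclc* (3615), *Mt2* (3419), *Gclm* (2348), *Mt3* (1886), *Txnrd1* (1008), *Hmox1* (239.7) and *Nqo1* (220.1). Neighbours overlapped between WT libraries at *Gclc* and *Mt2* and at *Hmox1* and *Nqo1*. *Hmox1* and *Nqo1* were therefore low-level transcripts, above 33.7% and 32.7% of the 16170 protein-coding genes expressed in WT, and *Srxn1* and *Cp* were above 95.9% and 94.9% of them. The length chosen decides much of this order. With the union of all exons as length, mean RPK in WT was 3969 for *Mt1*, 2613 for *Mt2*, 2060 for *Srxn1* and 1442 for *Cp*.

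The 104 tested genes of the same pathways came from lists chosen with earlier results of these data known. Their counts carry no test of their own. Among these genes 13 were upregulated and 5 downregulated, and the median of their log2 fold changes was 0.08. These are 12.5% and 4.81% of the lists, beside the 7.47% and 7.91% of all genes given above.

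Among the proteins that control NRF2, *Nfe2l2* itself rose by less than the FC threshold, from 22.8 ± 0.9 CPM in WT to 28.1 ± 1.7 CPM in SCA7 (SD, n = 4 and 3), a log2 fold change of 0.30 (SE 0.07, edgeR adjusted p = 0.0046). Its inhibitor *Keap1* (0.05, SE 0.06, adjusted p = 0.55) and its competitor *Bach1* (0.12, SE 0.06, adjusted p = 0.14) did not pass. The small MAF genes *Mafk* (0.56, SE 0.09, adjusted p = 0.00077) and *Maff* (0.74, SE 0.21, adjusted p = 0.023) were upregulated. They are 2 of the 10 genes of the list (20% against 7.47% of all genes). *Maff*, with 1.13 ± 0.29 CPM in WT and 1.90 ± 0.46 CPM in SCA7, missed the threshold in 4 of 7 fits that left out a library. None of the list was downregulated by edgeR, with 1 gene lower at an unadjusted p under 0.05 (20.2% of all genes) and none called by DESeq2 or limma-voom.

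Of 9 further NRF2 targets 4 were upregulated (44.4% against 7.47% of all genes). All 9, with a median log2 fold change of 0.23, were above 0, as were 47.5% of all genes. The largest was *Akr1b8*, an aldo-keto reductase, with 1.18, 1.05, 1.48 and 1.25 CPM in WT and 14.7, 12.9 and 13.7 CPM in SCA7. Its log2 fold change of 3.48 (SE 0.12, edgeR adjusted p = 6.1e-09) far exceeded that of any member, and 2.90% of its 50-base stretches occur in another gene's transcripts. *Blvrb*, a biliverdin reductase that acts after heme oxygenase, rose by 0.76 (SE 0.12, edgeR adjusted p = 0.00077), *Aox1*, an aldehyde oxidase, by 0.71 (SE 0.13, adjusted p = 0.0016) and *Osgin1*, a growth inhibitor induced by oxidative stress, by 0.66 (SE 0.17, adjusted p = 0.012). *Osgin1* missed the threshold without SCA7 replicate 2 (adjusted p = 0.058).

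The glutathione genes went both ways, 2 up and 2 down of 18 (11.1% each, against 7.47% and 7.91% of all genes). Their median log2 fold change was 0.02. *Gpx7*, a peroxidase of the endoplasmic reticulum, rose by 0.63 (SE 0.14, edgeR adjusted p = 0.0053) and the transferase *Gstm1* by 0.41 (SE 0.10, adjusted p = 0.011). *Chac1*, which degrades glutathione, had a log2 fold change of -0.86 (SE 0.14, adjusted p = 0.00068). *Gpx4*, the peroxidase that protects membrane lipids and is essential for photoreceptors, had one of -0.71 (SE 0.12, adjusted p = 0.00099). *Gstm1* and *Gpx4* share 18.9% and 34.7% of their 50-base stretches with near-identical copies, so their counts are uncertain, and *Gstm1* missed the threshold without SCA7 replicate 1 (adjusted p = 0.065). *Gpx3*, named after its values were seen, ranked far below the rest at -2.87 but with so wide a spread in WT (21.3 ± 19.6 CPM, SD, n = 4, against 2.90 ± 0.21 in 3 SCA7 libraries) that its edgeR adjusted p was 0.063.

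In the thioredoxin list 1 of 14 genes was called, a downregulated one (7.14% against 7.91% of all genes). It was *Nxnl1*, the rod-derived cone viability factor, which fell by 1.43 on the log2 scale (SE 0.10, edgeR adjusted p = 1.3e-06). It is a photoreceptor gene and moved with the rod and cone markers. None was upregulated by edgeR, with 6 genes higher at an unadjusted p under 0.05 (19.5% of all genes were), and DESeq2 and limma-voom called 2 and 1. By the adjusted p alone 3 of the 14 rose and 2 fell, against 14.2% of all genes in each direction. Those that rose were the mitochondrial reductase *Txnrd2* (0.37, edgeR adjusted p = 0.0044) and the peroxiredoxins *Prdx3* (0.32, adjusted p = 0.013) and *Prdx6* (0.21, adjusted p = 0.033), named after their values were seen. Those that fell were *Nxnl1* and *Nxnl2* (-0.50, edgeR adjusted p = 0.00011), the latter also named after its values were seen. In the paired fit with the replicate block, *Txnrd2* was upregulated and *Nxnl1* and *Nxnl2* were downregulated. *Txnip*, the thioredoxin inhibitor, had a log2 fold change of 0.04 (SE 0.23, adjusted p = 0.92), and of 0.27 with the replicate block (adjusted p = 0.017). No gene was called among 5 for superoxide and peroxide and 6 for NADPH supply by edgeR, DESeq2 or limma-voom. By the adjusted p alone the catalase gene *Cat* rose by 0.32 (SE 0.07, edgeR adjusted p = 0.0035) and *Idh1*, a source of NADPH, fell by 0.25 (SE 0.06, adjusted p = 0.0097). Both were named after their values were seen, and no other gene of the pair of lists passed an unadjusted p of 0.05.

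Zinc and copper genes had 3 of 21 upregulated (14.3%), all of them zinc importers of the ZIP family, and 2 downregulated (9.52%). Of all genes 7.47% and 7.91% were. *Slc39a1* rose from 30.5 ± 2.5 to 42.0 ± 1.1 CPM (SD, n = 4 and 3), a log2 fold change of 0.46 (SE 0.07, edgeR adjusted p = 0.00040). *Slc39a8* (0.49, SE 0.16, adjusted p = 0.042) and *Slc39a7* (0.49, SE 0.15, adjusted p = 0.031) were also upregulated. *Slc39a8* missed the threshold in 6 of 14 refits, with the replicate block (adjusted p = 0.075) and in 5 of 7 fits that left out a library (up to 0.15). *Slc39a7* missed it in 5 of 14, in limma-voom (adjusted p = 0.060) and in 4 of 7 fits that left out a library (up to 0.15). *Slc39a7* and *Slc39a1* also share 74.5% and 21.8% of their 50-base stretches with other gene models. With the replicate block *Slc39a14*, named after its values were seen, was also upregulated (log2 fold change 0.39, edgeR adjusted p = 5.8e-06). Without the block it was just under the FC threshold (1.298-fold, edgeR adjusted p = 0.00079). The importer *Slc39a4* and the vesicular zinc transporter *Slc30a3* had log2 fold changes of -0.86 (SE 0.23, edgeR adjusted p = 0.014) and -0.60 (SE 0.13, adjusted p = 0.0047), *Slc39a4* missing the threshold without SCA7 replicate 1 (adjusted p = 0.062) or 3 (adjusted p = 0.075). *Mtf1*, the zinc sensor that drives *Mt1* and *Mt2*, averaged 37.1 ± 4.4 CPM over WT libraries and 36.4 ± 0.5 CPM over SCA7 libraries (adjusted p = 0.83).

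Among 21 tested iron and heme genes 2 were upregulated (9.52% against 7.47% of all genes). *Trf*, the iron carrier transferrin, had 51.1, 62.1, 41.0 and 56.4 CPM in WT and 153.3, 147.9 and 120.3 CPM in SCA7, without overlap. It rose by 1.41 on the log2 scale (SE 0.14, edgeR adjusted p = 7.2e-05), although 59.4% of its 50-base stretches also belong to an overlapping gene model. *Slc40a1*, the iron exporter ferroportin that works with ceruloplasmin, gave 5.59, 5.37, 6.58 and 5.05 CPM in WT and 9.18, 9.21 and 8.55 CPM in SCA7. It rose by 0.67 (SE 0.10, adjusted p = 0.00040). *Heph*, the membrane ferroxidase related to *Cp*, did not pass (0.14, SE 0.07, adjusted p = 0.17). Of the ferritin chains, the light chain *Ftl1* rose by 0.29 (SE 0.07, adjusted p = 0.012), under the FC threshold and with 50.9% of its stretches shared with pseudogenes. *Ftl1* missed the adjusted p without SCA7 replicate 3 (0.062), while the heavy chain *Fth1* was at -0.03 (SE 0.07, adjusted p = 0.80). No gene of this list was downregulated by edgeR, DESeq2 or limma-voom, with 3 lower at an unadjusted p under 0.05, as were 20.2% of all genes. By the adjusted p alone 6 were higher and 1 was lower, against 14.2% of all genes in each direction. The lower one was the transferrin receptor gene *Tfrc*, named after its values were seen (log2 fold change -0.28, SE 0.08, edgeR adjusted p = 0.019, without overlap).

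Glucocorticoid targets were included because glucocorticoids raise *Mt1* and *Mt2*. Of 10 such genes none was upregulated by edgeR, DESeq2 or limma-voom, with 2 higher at an unadjusted p under 0.05 (19.5% of all genes). Both of these, *Nfkbia* (0.29, edgeR adjusted p = 0.041) and *Klf9* (0.20, adjusted p = 0.034), also passed the adjusted p alone, and 2 genes were lower by it. *Fkbp5*, a steroid receptor cochaperone, was upregulated in the paired fit with the replicate block (log2 fold change 0.50, edgeR adjusted p = 2.4e-05) but not without it (0.34, SE 0.23, adjusted p = 0.32). It had 19.7, 23.2, 18.5 and 31.1 CPM in WT and 34.8, 31.3 and 21.9 CPM in SCA7. As for *Mt1* and *Mt2*, WT replicate 4 was the highest WT library and SCA7 replicate 1 the highest of all, but the *Fkbp5* groups overlapped. These 3 genes were named after their values were seen, and their part in the metallothionein result was not tested. The kinase *Sgk1* fell by 1.23 on the log2 scale (SE 0.08, edgeR adjusted p = 4.3e-07). The median of the list was 0.05.

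**Figure D4:**
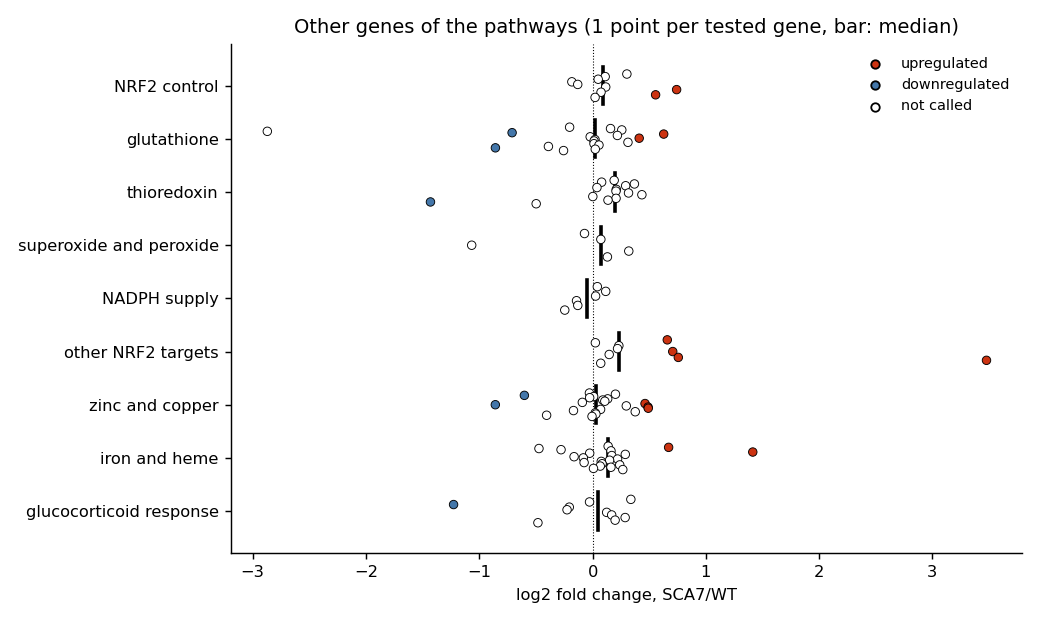
Log2 fold change (SCA7/WT) of the tested genes of 9 lists, 1 point per gene, filled red where upregulated and blue where downregulated, with the median of each list as a bar. Akr1b8 is the point at 3.48 and Trf the point at 1.41, and the list medians lie between -0.05 and 0.23.

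Markers of the cell types that a retina can hold were followed beside these genes. All 9 markers of reactive glia were upregulated in SCA7 (median log2 fold change 2.53), their summed level going from 124.0 to 134.8 CPM in WT to 613.6 to 732.3 CPM in SCA7, led by the acute-phase gene *Serpina3n*. The highest sum was in SCA7 replicate 1. Of the 5 members higher by the adjusted p, *Mt1*, *Mt2* and *Cp* were highest in that library and *Hmox1* and *Txnrd1* in SCA7 replicate 2. All 10 microglia markers were upregulated (median 1.22, summed level 48.4 to 62.7 CPM in WT and 119.8 to 135.4 CPM in SCA7). Of 10 Müller glia markers 2 were upregulated, *Clu* leading, and the summed level overlapped, from 5101 to 6049 CPM in WT and from 5601 to 5919 CPM in SCA7. By the adjusted p alone 6 of them were higher and 1 was lower, *Glul*, the glutamine synthetase, named after its values were seen (log2 fold change -0.36, edgeR adjusted p = 0.013, without overlap). Of 7 endothelial markers 3 were upregulated (summed level 210.5 to 254.4 and 275.2 to 333.2 CPM), led by *Kdr*, while *Cldn5*, named after its values were seen, was lower by the adjusted p alone (log2 fold change -0.48, edgeR adjusted p = 0.011). Of the 4 tested astrocyte markers 1 was upregulated and 1 other was lower by the adjusted p alone (62.5 to 71.6 and 66.4 to 70.2 CPM). Every marker in the first 4 of these lists had counts in every library and was tested. The part of any cell type in the changes above was not tested.

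Markers of tissue next to the retina varied between libraries. Of 6 pigment epithelium markers 4 were downregulated, with summed levels of 207.1, 216.0, 106.6 and 201.1 CPM in WT and 42.8, 35.3 and 18.0 CPM in SCA7. WT replicate 3, without which *Mt1* and *Mt2* missed the threshold, had the lowest of the WT values. Red blood cell markers summed to 54.5 to 76.8 CPM over WT and 30.5 to 61.7 CPM over SCA7 libraries, 1 of 5 being downregulated, and lens markers ranged from 44.0 to 1246 CPM over the 7 libraries without following genotype. The part of these tissues in the results was not tested.

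**Figure D5:**
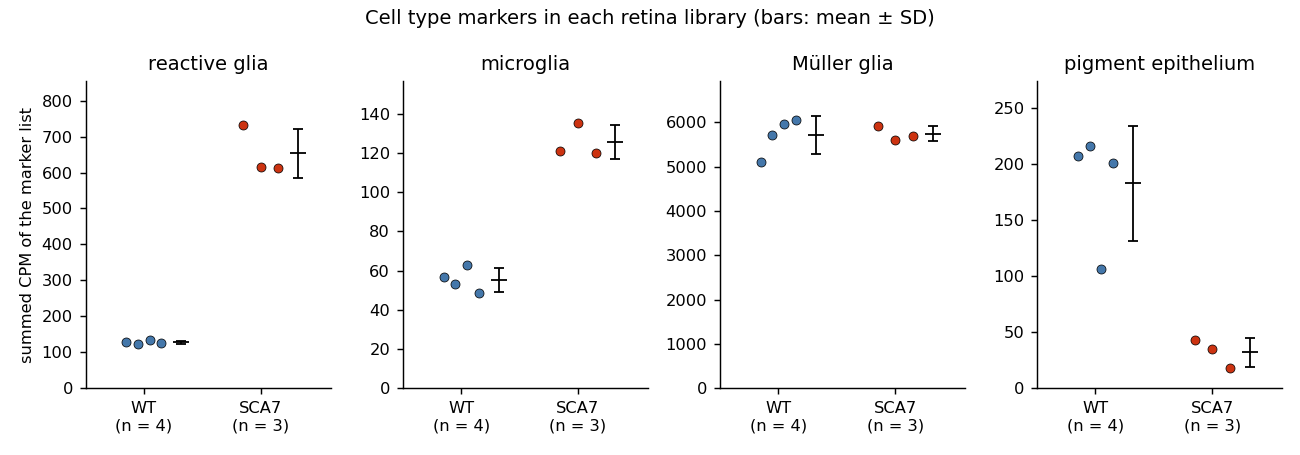
Summed CPM (linear axis from 0) of marker lists for reactive glia, microglia, Müller glia and pigment epithelium in each library of WT (blue, n = 4) and SCA7 (red, n = 3), with mean and SD. Reactive glia and microglia lie higher in all 3 SCA7 libraries, pigment epithelium lower, and Müller glia overlap.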

How the data were processed

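Total RNA-seq of 7 mouse retina samples was analysed, 4 WT and 3 SCA7. The authors mapped single reads to mm10 with TopHat2 2.0.14 and Bowtie2 2.1.0, and counted them per Ensembl release 90 gene with HTSeq 0.6.1. What they deposited is a table of raw read counts per gene, not normalized. The HTSeq mode and strand option are not given in the sources used here, and the kit marks strand. Gene names, positions and lengths came from GENCODE vM21 on the same assembly, which covered 52403 of 52550 genes.

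Genes were kept by filterByExpr of edgeR 4.0.16, libraries were scaled by TMM, and genotypes were compared over all 20128 genes with its robust quasi-likelihood test without covariates, p-values being adjusted by Benjamini-Hochberg. CPM used the TMM-scaled library sizes. RPK used DESeq2 1.42.0 size factors and median transcript length. Log2 ratios of counts (0.5 added to each) were compared by exact two-sided permutation tests. Up and down calls used the study's thresholds. The members and all lists were chosen with earlier results of these data known. The genes named are the 10 members, 10 genes fixed by name (*Nfe2l2*, *Keap1*, *Bach1*, *Mtf1*, *Slc40a1*, *Heph*, *Fth1*, *Ftl1*, *Hmox2* and *Txnip*) and, in each pathway list, up to 4 called genes per direction by size of change.

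The replicate numbers were checked for pairing. The correlation of deviations from the group means lay between 0.112 and 0.381 for the 3 pairs of equal number. These numbers were treated as a possible pairing in alternative tests, while the main test left it out. The labels do not say what a number stands for, and WT replicate 4, which has no partner, reached 0.147 with SCA7 replicate 1 and 0.187 with SCA7 replicate 3. Both are above the 0.112 of the pair of replicates 1, so the correlations alone do not establish a pairing. Counts per library were between 56497675 and 96635832, and at least 197 for every member, so the spread between mice sets the precision, given as SD or SE.

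Alternatives were DESeq2 size factors, the DESeq2 Wald test, limma-voom 3.58.1, fits with no filter or with a minimum of 10 counts per library, the replicate block, an *Xist* covariate, a stricter adjusted p of 0.01, calls by p alone, and leaving out each library. The fits were tested on simulated counts that held no effect of replicate number. There the one with the replicate block made more false calls than the others. Without such an effect the simulation cannot decide how the block does on paired libraries. Promoters came from the RefSeq table (GRCm38.p6). Shared 50-base stretches were counted between GENCODE transcripts. Protein comparisons were not made, the ChIP-seq data were not used here, and values of 1 gene are left out. R 4.3.3 and Python 3.11.15 were used.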

Additional observations from a re-analysis of the deposited data

Results flagged for a closer look

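Of 13 groups of 4 WT libraries tested with Dixon's criterion at the 95% level (the CPM of each of the 10 genes and the 3 log2 ratios), 1 had a library apart from the others. *Txnrd1* was at 39.53 CPM in WT replicate 1, while the other WT libraries lay between 41.5 and 41.7 CPM. The gap divided by the range was 0.889, above the critical value of 0.829. Chance alone flags about 1 group in 20. Groups of 3 libraries were not tested.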

How the results depend on the processing

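The count of upregulated members, 3 of 10, was also 3 with DESeq2 size factors in edgeR, in the DESeq2 Wald test, in limma-voom and with at least 10 counts in every library. It was 1 without a filter on low counts, 1 with the replicate block and 1 with *Xist* as a covariate, a gene that was near 0 in all libraries and so could not stand for sex. It was 0 at an adjusted p under 0.01 and 5 without the FC threshold, and it ranged from 1 to 3 over the fits that left out a library. No setting gave a downregulated member. Without the FC threshold 2853 genes were upregulated and 2852 downregulated. *Mt1* lost its call in 4 of 14 refits, *Mt2* in 5 and *Hmox1* in 3. Of the genes that passed the adjusted p only, *Txnrd1* missed it in 3 refits and *Cp* in none. The replicate block left few residual degrees of freedom, and beside *Mt1*, *Mt2* and *Slc39a8* it removed no call among the members, the genes fixed by name and the called genes of the pathway lists. The 3 log2 ratios moved by less than the spread between replicates in every setting.

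Values close to 0 changed sign. *Srxn1* ranged from -0.074 to 0.026 over the left-out libraries, positive without WT replicate 3. *Mt3* ranged from -0.116 to 0.0552 over them. It was at 0.00226 without a filter, 0.00503 with the replicate block, 0.0504 without WT replicate 3, 0.00362 without WT replicate 4, 0.00482 without SCA7 replicate 2 and 0.0552 without SCA7 replicate 3. *Mtf1* was at 0.0576 with the replicate block and ranged from -0.0691 to 0.0566 over the left-out libraries, *Fth1* from -0.0557 to 0.0163, and *Txnip* from -0.101 to 0.262, being negative without WT replicate 1, WT replicate 2 and SCA7 replicate 3. With the union of exons as length, the mean RPK of every member but *Nqo1* moved by more than the spread between replicates in at least 1 genotype. The cause of these differences was not tested. With 3 mice against 4, an exact test of a single value cannot go below p = 0.0286.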
